A study of Homo sapiens with 2 samples.

Results

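Broad regions of DEK binding were taken from chromatin immunoprecipitation with sequencing (ChIP-seq) of 786-O, a long-used cell line from a human renal carcinoma. Both libraries carried the WT genotype, a DEK antibody and a negative control label of a Cas9 experiment, and made up 1 group of 2 replicates grown under the same culture conditions. What the negative control label refers to, the cells or the precipitation, is not stated, nor is it stated that the replicates came from separate cultures, so the differences between them may be technical. No input and no edited sample was analysed here. On chromosomes 1 to 22, peaks of replicate 1 and replicate 2 with 1 bp or more in common were merged into shared regions. The broad regions were selected on their measured width alone, 1000 bp or more from the first to the last base. Of 12456 shared regions, 450 were broad (3.61%), and the other 12006 are called narrower regions. Their width and the strength of their peaks come from the values that chose them and are described here without a test. Their position relative to genes was not used in the choice, but it has no replicates beyond the 2 libraries, and shares are given with 95% Wilson intervals that cover counting error only.

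DEK occurs in nuclei in large amounts, bound to chromatin and to histones, and it has been described as a chaperone of the histone variant H3.3. It is known for binding supercoiled and structured DNA and for changing the topology of the DNA it binds. Peak callers turn a stretch of elevated read density into 1 interval, so a broad region is either a long elevated stretch or several close peaks that the joining of both libraries bridged.

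The promoters of the genes whose start lay under a broad region show the small overlap these regions had with transcription starts. A start was known for 15101 of 19126 protein-coding genes, and broad regions covered 7 of these starts. On chromosomes with known starts, 1.62% of 433 broad regions covered one, against 2.85% of 11664 narrower regions. Among regions of 500 bp to under 1000 bp it was 2.41% of 3936, so a small overlap was common to shared regions. The promoter table held 300 bases per gene, 250 before and 50 after the start, and the 6 covered promoters with the highest mean fold enrichment are printed 5′ to 3′ in the direction of the gene, from RefSeq on GRCh38.p14. Capitals mark matches on either strand to CCAAT, to the GC box GGGCGG, to the AP-1 site TGACTCA and to TATAAA; matches are letters in the window and not shown to be sites. The intervals are chr16:3256584-3256883 on the minus strand for MEFV, chr9:114099243-114099542 on the minus strand for KIF12, chr19:11346269-11346568 on the plus strand for CCDC159, chr19:46850265-46850564 on the minus strand for AP2S1, chr17:80892122-80892421 on the minus strand for LOC124904075 and chr19:12140301-12140600 on the minus strand for ZNF20.
MEFV: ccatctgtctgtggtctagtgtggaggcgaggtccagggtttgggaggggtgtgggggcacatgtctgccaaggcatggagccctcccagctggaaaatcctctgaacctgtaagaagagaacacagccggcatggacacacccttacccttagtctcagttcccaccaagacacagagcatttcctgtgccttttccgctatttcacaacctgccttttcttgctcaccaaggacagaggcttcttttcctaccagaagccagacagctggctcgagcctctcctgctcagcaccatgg
KIF12: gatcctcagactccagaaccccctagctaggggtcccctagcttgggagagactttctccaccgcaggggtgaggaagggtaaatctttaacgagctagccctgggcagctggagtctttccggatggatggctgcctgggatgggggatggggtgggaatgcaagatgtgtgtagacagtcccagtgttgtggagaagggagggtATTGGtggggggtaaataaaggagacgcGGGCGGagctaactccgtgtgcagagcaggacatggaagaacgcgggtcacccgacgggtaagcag
CCDC159: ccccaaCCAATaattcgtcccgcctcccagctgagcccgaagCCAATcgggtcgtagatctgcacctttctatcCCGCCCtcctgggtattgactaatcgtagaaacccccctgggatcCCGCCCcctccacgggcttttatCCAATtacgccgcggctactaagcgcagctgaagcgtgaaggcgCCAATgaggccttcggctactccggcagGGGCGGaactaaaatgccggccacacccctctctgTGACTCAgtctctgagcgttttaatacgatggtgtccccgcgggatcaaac
AP2S1: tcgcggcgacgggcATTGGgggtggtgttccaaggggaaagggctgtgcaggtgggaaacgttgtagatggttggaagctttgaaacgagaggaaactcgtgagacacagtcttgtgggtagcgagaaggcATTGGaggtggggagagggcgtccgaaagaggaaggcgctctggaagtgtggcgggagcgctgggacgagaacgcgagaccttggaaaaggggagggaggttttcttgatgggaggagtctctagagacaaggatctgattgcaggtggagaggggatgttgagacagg
LOC124904075: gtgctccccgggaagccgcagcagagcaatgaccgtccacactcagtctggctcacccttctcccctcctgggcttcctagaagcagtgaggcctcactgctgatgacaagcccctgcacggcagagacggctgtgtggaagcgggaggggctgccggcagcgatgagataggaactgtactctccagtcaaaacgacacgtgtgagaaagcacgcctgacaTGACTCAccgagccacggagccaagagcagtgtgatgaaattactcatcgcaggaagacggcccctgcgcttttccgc
ZNF20: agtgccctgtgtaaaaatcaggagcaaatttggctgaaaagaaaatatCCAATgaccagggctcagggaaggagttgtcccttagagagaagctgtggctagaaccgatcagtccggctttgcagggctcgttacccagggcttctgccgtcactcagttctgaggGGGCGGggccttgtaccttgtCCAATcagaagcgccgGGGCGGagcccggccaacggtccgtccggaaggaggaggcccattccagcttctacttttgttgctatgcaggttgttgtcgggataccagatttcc

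These promoters differed among themselves. That of CCDC159 held the CCAAT, GC box and AP-1 letters together and 23 CpG dinucleotides, whereas that of MEFV, the gene of the inflammasome sensor pyrin, held none of the searched letters and 4 CpG dinucleotides. Over all 7 covered promoters, 5 held CCAAT (71.4%), 3 the GC box (42.9%), 2 the AP-1 site (28.6%) and 0 TATAAA. Of the 377 promoters whose start lay under a narrower region, 67.1% held CCAAT, 64.7% the GC box, 7.43% the AP-1 site and 6.90% TATAAA. Among all 15101 promoters these shares were 36.0%, 58.9%, 3.66% and 9.71%. The median GC content was 57.3% in the promoters under broad regions, 58.0% in those under narrower regions and 63.0% in all promoters. With 7 promoters, no share under broad regions could be told apart from that under narrower ones.

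Broad regions were mostly little wider than the threshold. Their median width was 1158 bp, with quartiles at 1059 and 1330 bp and a maximum of 3357 bp. Under 1100 bp lay 159 of them, over 1500 bp 44 and over 2000 bp 5. Narrower regions had a median width of 419 bp. Broad regions added up to 552 kb, or 9.15% of all bases in shared regions. The distribution was continuous at the threshold, with 98 regions in the first 50 bp above it and 102 in the last 50 bp below it.

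**Figure D1:**
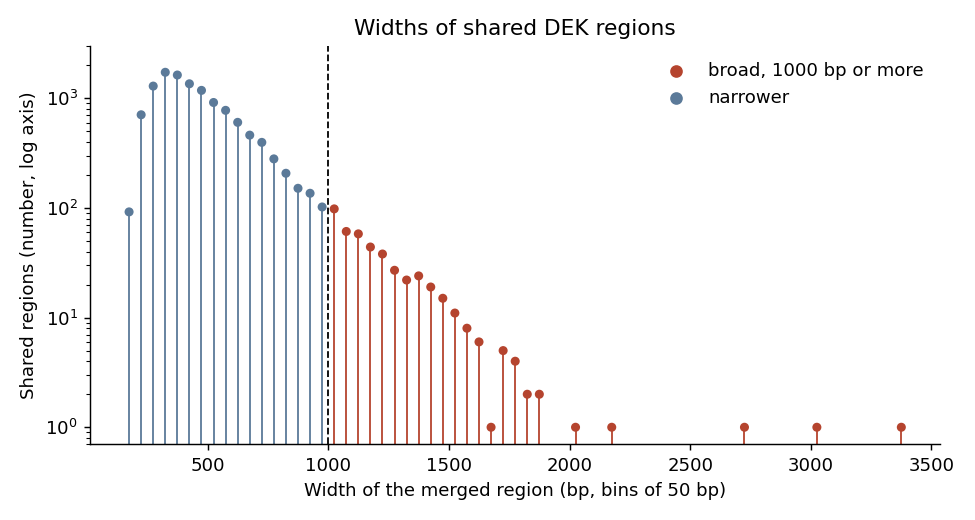
Number of shared regions, on a log axis, by width in bins of 50 bp; broad regions (red) lie right of the dashed line at 1000 bp and narrower regions (blue) left of it. The counts fall off smoothly through 1000 bp, and 5 regions exceed 2000 bp.

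The regions beside the threshold lay in or near genes on both sides of it. Just inside were regions in CAMK1D at 1000 bp (fold enrichment 6.45 in replicate 1 and 7.03 in replicate 2), KLHL36 at 1001 bp (4.33 and 4.41) and BAALC at 1001 bp (4.38 and 4.79). Just outside were regions at TMEM245 of 998 bp (4.19 and 4.84), and at NUAK2 (3.08 and 3.21) and DPYSL3 (5.08 and 5.02), each 1 bp under the threshold. Fold enrichment is the authors' deposited linear ratio at the summit of a peak within 1 library, and each region was given that of its strongest peak.

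A broad region seldom was a single broad peak in both libraries. In 249 of the 450, each library had 1 peak, and in the other 201 at least 1 library had several, up to 3. A single peak of 1000 bp or more was present in both libraries in 73 broad regions, in replicate 1 alone in 62, in replicate 2 alone in 201 and in neither in 114. Replicate 2 called 24144 peaks on these chromosomes, of which 277 (1.15%) reached 1000 bp, against 18794 and 135 (0.718%) in replicate 1. The part of a region that both libraries covered was a median 63.5% of a broad region and 63.2% of a narrower region.

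The libraries placed the summit less closely together in broad regions. The median distance between the summits of the replicates was 116 bp in broad regions, 95 bp in regions of 500 bp to under 1000 bp and 67 bp in all narrower regions. It exceeded 500 bp in 14.4% of broad regions and 0.450% of narrower regions, which are often too short to hold such a distance. The fold enrichments of the replicates differed by a median 0.13 on the log2 scale in broad regions and 0.17 in narrower regions.

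The peaks of broad regions were not much more enriched, but they had more reads and stood in a higher local background. Median fold enrichment was 4.23 in both replicates in broad regions, against 4.10 in replicate 1 and 4.08 in replicate 2 in narrower regions. These are folds of the strongest peak of each region, and broad regions often held several peaks. With the mean over the peaks of a region, the median of broad regions was 4.03 in replicate 1 and 4.13 in replicate 2. The same mean is not given for narrower regions, so the order of the medians depends on this choice. The median summit pileup, the number of read fragments over the summit solved from the deposited fold and p, was 32 in replicate 1 and 35 in replicate 2 in broad regions, against 21 and 22 in narrower regions. The median local background, in the same unit, was 6.69 and 7.32 in broad regions, against 4.15 and 4.47 in narrower regions. The median −log10 q was 8.03 and 9.07 in broad regions, against 5.05 and 5.44 in narrower regions.

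Background and pileup climbed together over 4 classes of width. In replicate 1 the median background was 3.33 in regions under 300 bp, 3.99 at 300 bp to under 500 bp, 4.75 at 500 bp to under 1000 bp and 6.69 in broad regions, and in replicate 2 it was 3.59, 4.25, 5.15 and 7.32. Median fold enrichment over the same classes moved between 4.06 and 4.23 in replicate 1 and between 4.03 and 4.23 in replicate 2. A fold of 10 or more was reached by 5 broad regions in replicate 1 (1.11%) and 2 in replicate 2 (0.444%), against 1.07% and 1.24% of narrower regions. What part the local background had in the width of a region was not tested.

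**Figure D2:**
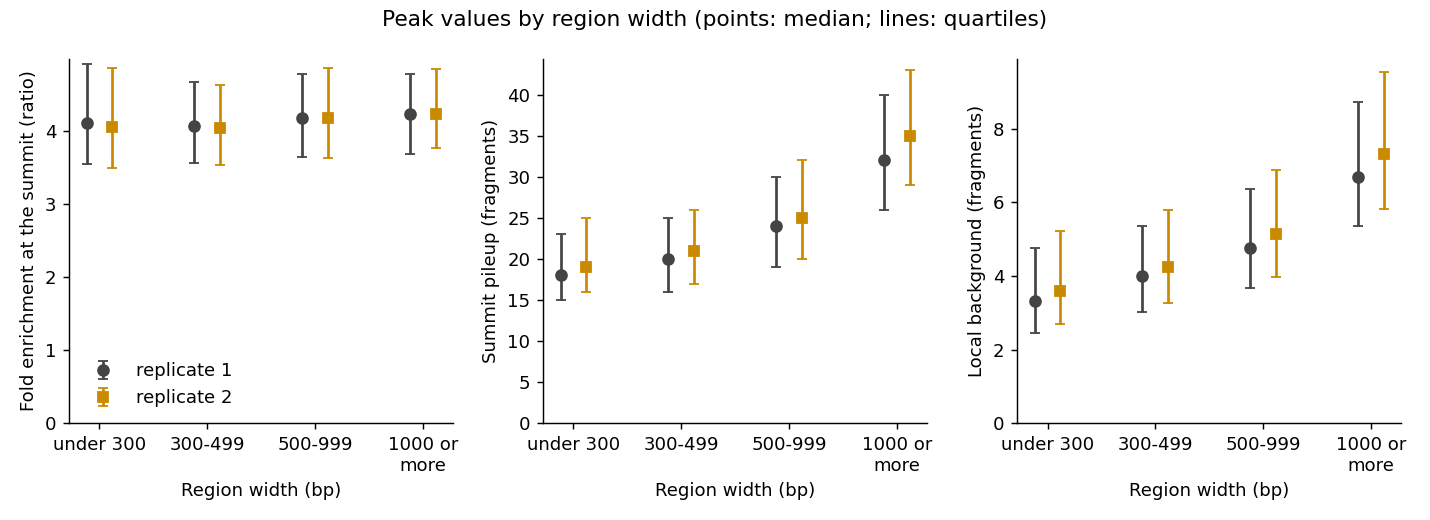
Fold enrichment (ratio), summit pileup and local background (fragments) over 4 classes of region width in bp, with medians as points and quartiles as lines, for replicate 1 (grey circles) and replicate 2 (yellow squares). Median fold stays between 4.03 and 4.23, while median background climbs with each class, from 3.33 and 3.59 under 300 bp up to 6.69 and 7.32 in broad regions.

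By gene position, broad regions lay more often inside protein-coding genes and less often within 1 kb of a gene's end than narrower regions. The summit lay inside a protein-coding gene, away from its ends, in 285 broad regions (63.3%, 95% interval 58.8 to 67.7%) and in 6212 narrower regions (51.7%, 50.8 to 52.6%), beside 52.2% of all shared regions. It lay at an end of a protein-coding gene, within 1 kb of either annotated boundary, in 25 broad regions (5.56%, 3.79 to 8.07%) and 1057 narrower regions (8.80%, 8.31 to 9.32%), beside 8.69% of all shared regions. The second comparison depended on the definition. Within 3 kb of an end lay 21.1% of broad regions (17.6 to 25.1%) and 18.4% of narrower regions (17.7 to 19.1%), the opposite order with overlapping intervals. With any base counted in place of the summit, 11.6% of broad and 10.3% of narrower regions touched the 1 kb windows, but a wider region reaches a window more often wherever its summit lies.

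The remaining broad regions were spread over other annotation. Genes of long non-coding RNAs (lncRNAs) held 33 broad regions (7.33%) against 8.65% of narrower regions. Pseudogenes held 6 (1.33%) against 0.95%. Stretches of 1 Mb or more without a gene held 14 (3.11%, 1.86 to 5.15%) against 4.81% of narrower regions. The latter share varied with width, from 16.7% under 300 bp to 2.97% at 300 bp to under 500 bp. At 500 bp to under 1000 bp it was 1.316% (1.008 to 1.717%), below that of broad regions and without overlap of the intervals. The order thus depended on which narrower regions were compared. Another 87 broad regions (19.3%) lay elsewhere, against 25% of narrower regions.

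The share inside genes increased with each class of width. It was 40.2% under 300 bp, 51.8% at 300 bp to under 500 bp, 57.6% at 500 bp to under 1000 bp and 63.3% in broad regions. The share at gene ends over the same classes was 9.47%, 9.39%, 7.60% and 5.56%. Among regions with a background of 5 to 8, a range chosen after seeing the data, 66.9% of 178 broad regions (59.6 to 73.3%) and 61.6% of 2567 narrower regions (59.7 to 63.5%) lay inside genes, so that the intervals overlapped and the excess was 5.23 percentage points, against 11.6 over all regions. The interval of broad regions, 58.8 to 67.7%, also overlapped that of regions of 500 bp to under 1000 bp, 56.1 to 59.1%. The same held at gene ends, with 3.79 to 8.07% for broad regions and 6.82 to 8.46% for those of 500 bp to under 1000 bp. At a background of 5 to 8, 5.06% of broad regions (2.68 to 9.33%) and 7.60% of narrower regions (6.63 to 8.69%) lay at gene ends. These intervals overlapped as well.

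**Figure D3:**
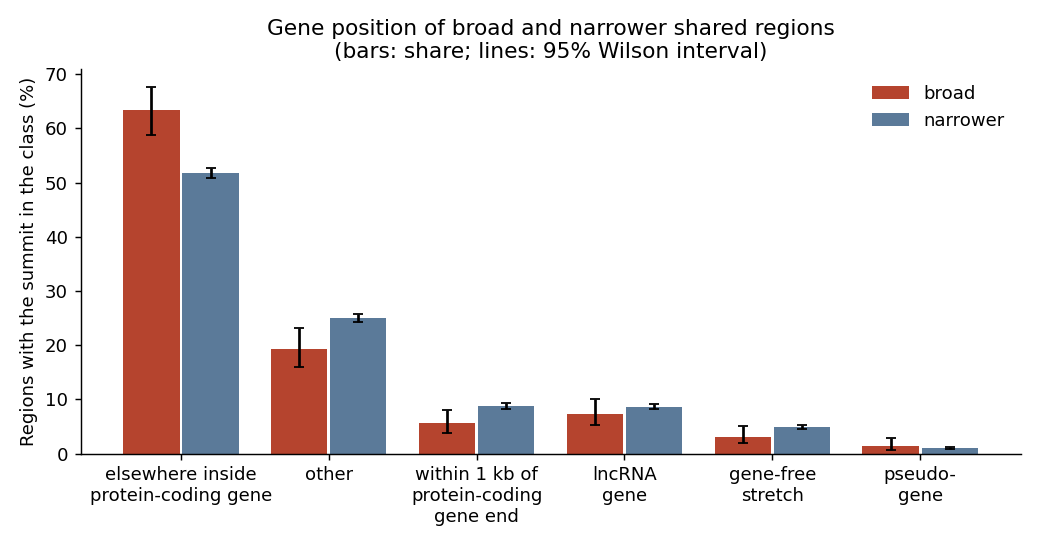
Percent of regions in each class of gene position, for broad regions and narrower regions, with 95% Wilson intervals. Inside protein-coding genes the bars are 63.3% for broad and 51.7% for narrower regions, and at gene ends 5.56% for broad and 8.80% for narrower regions.

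Broad regions at a gene end with a known start were less often at the start. Of the 18 such regions whose gene had a known start, 7 lay within 1 kb of that start (38.9%, 20.3 to 61.4%). The other 11 lay farther from it, and at which gene boundary was not checked. Of 892 narrower regions, 603 lay within 1 kb of the start (67.6%, 64.5 to 70.6%). For regions of 500 bp to under 1000 bp the share was 54.4% (48.3 to 60.3%), an interval that overlapped that of broad regions.

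Distances to the nearest known start located the difference. A summit within 1 kb of a start occurred in 9 broad regions (2.08% of 433, 1.10 to 3.90%) and 5.64% of 11664 narrower regions (5.24 to 6.07%). At 1 to 3 kb the order was the opposite, with 36 broad regions (8.31%, 6.07 to 11.3%) against 5.54% of narrower regions (5.14 to 5.97%). Both libraries showed the first difference on their own, with 1.54% of peaks of 1000 bp or more in replicate 1 and 1.49% in replicate 2 within 1 kb, against 6.14% and 6.08% of their narrower peaks. At 1 to 3 kb, replicate 1 had 6.15% of its broad peaks against 6.02% of its narrower peaks, and replicate 2 had 8.96% against 6.33%, so the excess there appeared mainly in replicate 2. Shared regions of 500 bp to under 1000 bp were at 4.07% within 1 kb (3.49 to 4.73%). They were at 6.55% at 1 to 3 kb (5.82 to 7.37%). Both intervals overlapped those of broad regions.

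At larger distances, 26.8% of broad regions (22.8 to 31.2%) lay 20 to 50 kb from a start, against 21.2% of narrower regions (20.5 to 22%). For regions of 500 bp to under 1000 bp it was 22.7% (21.4 to 24.0%), an interval that overlapped that of broad regions. Beyond 100 kb lay 25.9% of broad and 29.3% of narrower regions. The median distance was 39.2 kb for broad and 43.4 kb for narrower regions. Among regions 1 to 10 kb from a start, 61 of 85 broad regions were downstream of it (71.8%, 61.4 to 80.2%), against 1090 of 1798 narrower regions (60.6%, 58.3 to 62.9%). The share among regions of 500 bp to under 1000 bp was 63.4% (59.7 to 67.0%), and its interval overlapped that of broad regions, as did that of narrower regions. In replicate 1 alone 74.1% of 27 broad peaks lay downstream (55.3 to 86.8%), against 60.9% of narrower peaks (59.1 to 62.7%), and in replicate 2 74.5% of 55 broad peaks (61.7 to 84.2%), against 61.9% (60.4 to 63.5%). The intervals overlapped in both libraries.

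**Figure D4:**
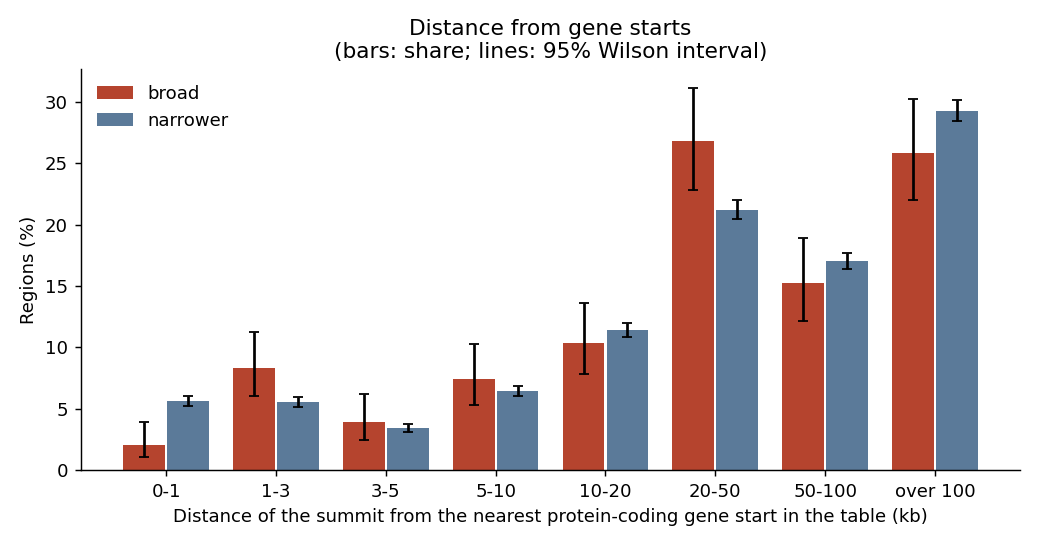
Percent of broad regions and of narrower regions by distance of the summit from the nearest known start of a protein-coding gene, in kb, with 95% Wilson intervals. Broad regions are at 2.08% against 5.64% for narrower regions within 1 kb, and at 8.31% against 5.54% at 1 to 3 kb.

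Within genes, broad regions were spread over the whole length, with the fewest in the last part. Going along the host gene from start to end, 5 equal parts held 24.1%, 20.5%, 20.5%, 20.9% and 14.1% of the broad regions with a known direction, and 22.8%, 21.5%, 19.7%, 19.2% and 16.7% of the narrower regions. The median position was 44.9% along the gene for broad and 45.4% for narrower regions. The host genes had a median length of 89.5 kb for broad and 114 kb for narrower regions.

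The widest broad region, 3357 bp on chromosome 17 from 1308175 to 1311531, lay outside genes. Its summit was 9.03 kb from TRARG1, which regulates trafficking of a glucose transporter. The fold enrichment of this region was 3.33 in replicate 1 and 3.29 in replicate 2, below the median of broad regions in both. The next, 3020 bp on chromosome 16 from 46398573 to 46401592 and 2701 bp on chromosome 4 from 49709233 to 49711933, lay in gene-free stretches. They had summit pileups of 232 in both replicates, and of 318 and 313, with folds of 3.44 and 3.37, and of 5.52 and 5.45. Their local background was 66.7 in replicate 1 and 68.2 in replicate 2, and 56.8 and 56.6. Repeats were not examined and no input was analysed. Whether read mapping gave the signal in gene-free stretches, here or below, was not tested. The local background exceeded 20 in 12 broad regions in replicate 1 (2.67%) and 13 in replicate 2 (2.89%), against 0.583% and 0.683% of narrower regions.

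Among the widest regions in genes were neighbours on chromosome 5. CLPTM1L, which encodes a membrane protein, held 2150 bp (4.26 in replicate 1 and 3.97 in replicate 2). TERT, which encodes the catalytic subunit of telomerase, held 1749 bp (4.74 and 4.03) from 1289383 to 1291131, with the summit 4.24 kb from the nearest known start. BCL2L1, which encodes the survival factor BCL-XL, held 2035 bp on chromosome 20 (3.30 and 3.0). KIF3B, a motor subunit of kinesin-2, held 1817 bp on the same chromosome (4.84 and 5.14).

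PLEC, the gene of the cytolinker plectin, held 1796 bp (4.21 in replicate 1 and 5.07 in replicate 2). CORO1C, which encodes an actin-binding coronin, held 1739 bp (4.29 and 4.22), and PECAM1, an adhesion molecule known from endothelium, 1751 bp (4.72 and 4.25). CYSTM1 held 1880 bp (3.02 and 3.59).

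The other 4 of the 15 lay outside protein-coding genes. Distances from genes are again those of the summit. A region of 1858 bp lay 2.78 kb from BRD2, which encodes a bromodomain protein (4.28 in replicate 1 and 3.79 in replicate 2). Another of 1792 bp lay 6.21 kb from CCNL1, the gene of cyclin L1 (3.33 and 3.73). The lncRNA gene LINC00673 held 1789 bp (2.96 and 3.29). A region of 1823 bp on chromosome 20, from 31607161 to 31608983, had its summit 1.24 kb from ID1, an inhibitor of basic helix-loop-helix factors (3.16 in both replicates).

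That last region covers the microRNA gene MIR3193, the 1 microRNA gene of the RefSeq table found under a broad region. The mature miRNA lies at chr20:31607186-31607207 on the plus strand, and capitals mark its seed, bases 2 to 8.
hsa-miR-3193: uCCUGCGUaggaucugaggagu
A region over this gene says nothing of the level of the miRNA, which was not measured.

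Broad regions with the highest fold enrichment were not the widest. One of 1038 bp on chromosome 10, from 40556269 to 40557306 in a gene-free stretch, had folds of 13.9 in replicate 1 and 13.5 in replicate 2. ART1, the gene of an ADP-ribosyltransferase, held a region of 1003 bp (14.1 and 11.3), 3 bp above the threshold. A region of 1334 bp in PLEKHG4B and the overlapping LOC124900629 had folds of 10.2 and 9.68, one of 1441 bp in a gene-free stretch of chromosome 5 had 10.6 and 9.26, and one of 1116 bp in DOCK1, an activator of the small GTPase Rac, had 9.32 and 9.44.

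The strongest broad regions at gene ends belonged to genes of varied function. DLX2, a homeobox factor of forebrain development, had the highest mean fold, 5.82 ± 0.0751 (SD, n = 2 libraries), at the end opposite its start. MEFV followed with 5.31 ± 0.826 and the kinesin gene KIF12 with 5.23 ± 0.711, both at the start. A region that overlaps TMEM205 and CCDC159 and covers the known start of CCDC159 had 5.14 ± 0.229. PRLH, which encodes prolactin-releasing hormone, had 4.50 ± 0.216, the uncharacterised LOC124904075 4.43 ± 0.374, and the zinc finger gene ZNF20 4.36 ± 0.00569, all 3 at the start. UAP1L1 had 4.84 ± 0.958, PDLIM2 4.62 ± 0.0724 and SMIM5 4.48 ± 0.00733, and the promoter table held no start for these genes. The summit of the region at LOC124904075 also lay inside RPTOR, and that of the region at SMIM5 inside RECQL5.

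In all, 303 protein-coding genes (1.58%) held a broad region, within the gene or at its ends, and 4562 (23.9%) held a narrower one. Of the 303, 209 (69.0%) also held a narrower region, up to 18. Their median length was 79.6 kb, against 56.2 kb for genes with a narrower region and 24.5 kb for all protein-coding genes. Over genes under 10 kb, of 10 to 50, 50 to 100 and 100 to 200 kb and over 200 kb, 0.394%, 1.14%, 2.50%, 3.58% and 4.18% of genes held a broad region, against 9.53%, 21.0%, 33.2%, 42.9% and 51.4% that held a narrower one. Genes holding a broad region thus were 4.13, 5.45, 7.53, 8.34 and 8.13 per 100 genes holding a narrower one. These figures count a gene once however many regions it held. Counted by region, the order of lengths was the opposite, with median host genes of 89.5 kb for broad and 114 kb for narrower regions. The ratios therefore do not show that broad regions favoured longer genes than narrower ones did.

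Of protein-coding genes, 15 held 2 broad regions and 0 held 3. MGLL, which encodes the lipase that breaks down monoacylglycerols, held one of 1552 bp (4.15 in replicate 1 and 3.82 in replicate 2) and one of 1299 bp (3.95 and 3.82), with 3 narrower regions. SLCO2A1, a prostaglandin transporter gene, held 1481 bp (4.06 and 4.16) and 1284 bp (3.92 and 3.69) and no narrower region. The ubiquitin-conjugating enzyme gene UBE2O held 1526 bp (4.49 and 4.41) and 1092 bp (3.69 and 3.88).

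ZMIZ1, a transcriptional coregulator gene, held 1356 bp (4.24 in replicate 1 and 5.14 in replicate 2) and 1083 bp (5.06 and 4.51). CRISPLD2 held 1208 bp (3.89 and 3.24) and 1177 bp (4.76 and 3.69), 13.3 kb from the first base of one to the last of the other. PDE10A, which encodes a cyclic nucleotide phosphodiesterase, held 1358 bp (5.29 and 6.40) and 1011 bp (3.69 and 3.89).

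OSMR, the oncostatin M receptor gene, held 1133 bp (4.12 in replicate 1 and 3.57 in replicate 2) and 1131 bp (2.64 and 2.86). TGFA, which encodes a ligand of the epidermal growth factor receptor, held 1159 bp (4.33 and 4.38) and 1013 bp (2.86 and 3.23). The adaptor gene SHB held 1182 bp (4.55 and 3.93) and 1112 bp (4.43 and 4.86), beside 10 narrower regions. ASAP1, which encodes a GTPase-activating protein of Arf, held 1166 bp (3.68 and 3.11) and 1015 bp (3.99 and 5.05). The other 5 were UBE2H, RALGDS, ASAP2, MAEA and AGAP1.

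Gene lists for this line and for chromatin were counted against the 1.58% of all protein-coding genes with a broad region and the 23.9% with a narrower one. Long genes held more regions of both kinds, and the lists differ in gene length, which was not adjusted for. The lists were also chosen with earlier results of these data known, so their shares and order are a description and support nothing by themselves. Lists of cell contacts and signalling held the most. Of 40 adhesion and actin genes 4 (10.0%) held a broad region and 27 (67.5%) a narrower one. SEPTIN9, which encodes a filament-forming GTPase, had 1624 bp (3.68 in replicate 1 and 3.48 in replicate 2), the focal adhesion gene TNS3 1397 bp (5.29 and 4.80), ARHGEF2 1146 bp (3.6 and 5.70) and NEDD9 1007 bp (3.71 and 3.91).

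Of 42 receptor tyrosine kinase signalling genes, 4 (9.52%) held a broad region and 19 (45.2%) a narrower one. CMIP had 1480 bp (3.63 in replicate 1 and 4.47 in replicate 2) beside 18 narrower regions, the receptor gene ROR2 1475 bp (4.94 and 3.44), and SHB is described above. The fourth was EGFR, the epidermal growth factor receptor gene, with 1126 bp (3.81 and 4.22). Of 33 YAP, TEAD and TGF-beta genes, 3 (9.09%) held a broad and 20 (60.6%) a narrower region. These were the angiomotin gene AMOTL2 with 1422 bp (3.65 and 3.43), the Hippo kinase gene LATS2 with 1231 bp (5.32 and 5.53) and SMAD3, a mediator of TGF-beta signals, with 1151 bp (4.21 and 3.53).

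Of 45 matrix and integrin genes, 4 (8.89%) held a broad and 24 (53.3%) a narrower region. The integrin gene ITGB3 had 1205 bp (4.74 in replicate 1 and 5.29 in replicate 2), the collagen gene COL18A1 1134 bp (3.78 and 3.65) and the integrin gene ITGB5 1064 bp (4.23 and 4.36). The inhibitor of metalloproteinases TIMP2 had 1037 bp (4.76 and 3.94).

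In lists close to the biology of renal carcinoma, 1 or 2 genes each held a broad region, shares above the 1.58% of all protein-coding genes that rest on these small counts. Of 37 hypoxia and HIF target genes, 2 (5.41%) held a broad and 20 (54.1%) a narrower region, namely TGFA and SLC2A1, the glucose transporter gene, with 1111 bp at the end opposite its start (2.99 in replicate 1 and 3.04 in replicate 2). Of 27 renal lineage genes, 1 (3.70%) held a broad and 6 (22.2%) a narrower region. It was PAX8, a kidney lineage factor, with 1119 bp (5.79 and 4.94) beside 3 narrower regions. Of 26 renal tubule genes, 1 (3.85%) held a broad region, the keratin gene KRT7 with 1032 bp (3.75 and 3.24), and 11 (42.3%) a narrower one.

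The lists of transcription and inflammation likewise held 1 or 2. Of 39 NF-kappaB and inflammation genes, 2 (5.13%) held a broad region, BCL2L1 and TNFAIP2, the second with 1041 bp (4.22 in replicate 1 and 4.31 in replicate 2), and 12 (30.8%) a narrower one. Of 40 nuclear receptor genes, 2 (5.00%) held a broad region and 18 (45.0%) a narrower one. They were RXRA, the partner of many other nuclear receptors, with 1235 bp (4.53 and 4.60) and NR6A1 with 1027 bp (3.75 and 3.70). Of 38 immediate early and AP-1 genes, 1 (2.63%) held a broad region, the serum response factor gene SRF with 1416 bp (4.22 and 4.73), and 7 (18.4%) a narrower one.

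Of 47 chromatin regulator genes, 1 (2.13%) held a broad region and 27 (57.4%) a narrower one. It was KDM4B, the gene of a histone demethylase, with 1451 bp (2.96 in replicate 1 and 3.19 in replicate 2). Of 81 ribosomal protein genes, 1 (1.23%) held a broad region, RPL13 with 1148 bp (3.51 and 4.09), and 20 (24.7%) a narrower one. Of 497 zinc finger genes, 2 (0.402%) held one, ZNF792 with 1230 bp (4.71 and 5.87) and ZNF20, and 75 (15.1%) a narrower one.

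The remaining lists held none, and a count of 0 allows different shares. None of 69 clustered histone genes held a broad region, which allows up to 4.35%, while 21 (30.4%) held a narrower one. The limits are 8.82% for 34 G2 and M phase genes, with 11 (32.4%) holding a narrower region, and 9.09% for 33 heat shock and unfolded protein genes, with 14 (42.4%). They are 10.7% for 28 immune marker genes, with 2 (7.14%), and 12.5% for 24 neuron marker genes, with 9 (37.5%). For 391 olfactory receptor genes the limit is 0.767%, and 5 (1.28%) held a narrower region.

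Genes of lncRNAs reached 3 broad regions where no protein-coding gene did. PVT1, an lncRNA gene next to MYC, held 3, with folds of 3.62, 4.63 and 4.65 in replicate 1 and 3.70, 3.97 and 4.62 in replicate 2, and 16 narrower regions. LINC00673 held 3 broad and 3 narrower regions. LINC-PINT, with 232 kb, and CARINH, with 65.1 kb, held 1 each.

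Broad regions had more company than narrower ones. Measured between summits, the nearest other shared region lay a median 17.1 kb from a broad region and 25.1 kb from a narrower one. By the same measure, no other shared region lay within 100 kb of 9.56% of broad and 19.7% of narrower regions. For 33.8% of broad and 21.1% of narrower regions, 5 or more did. Regions of 500 bp to under 1000 bp lay between the 2 sets, at 22.2 kb, 16.6% and 22.6% for these measures. Broad regions within 100 kb of each other formed 46 groups with 102 members, 7 of them with 3 or more. The groups of 4 lay on chromosome 16 from 34571629 to 34595819, on chromosome 17 around LINC00673 and on chromosome 20 from 31559897 to 31706653, where HM13 and BCL2L1 each hold 1 and the region by ID1 lies between.

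The share of shared regions that were broad varied with the chromosome. It was 6.56% on chromosome 16 (4.82 to 8.88%), 5.83% on chromosome 20 (3.98 to 8.46%) and 5.01% on chromosome 17 (3.72 to 6.70%). It was lowest on chromosome 14, where 1 of 172 was broad (0.581%, 0.103 to 3.22%), and it was 1.48%, 1.65% and 1.52% on chromosomes 13, 15 and 21. The median local background was 4.98 in replicate 1 and 5.41 in replicate 2 on chromosome 16, 5.22 and 5.77 on chromosome 20 and 4.84 and 5.30 on chromosome 17, and 2.68 and 2.85 on chromosome 14. On chromosomes 13, 15 and 21 it was 3.35 and 3.68, 3.90 and 4.25, and 4.13 and 4.47. The order of background was not always that of the share. On chromosome 8, where 4.74% were broad, it was 3.47 and 3.70, lower than on chromosomes 15 and 21. Whether the background set the share on these chromosomes was not tested.

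**Figure D5:**
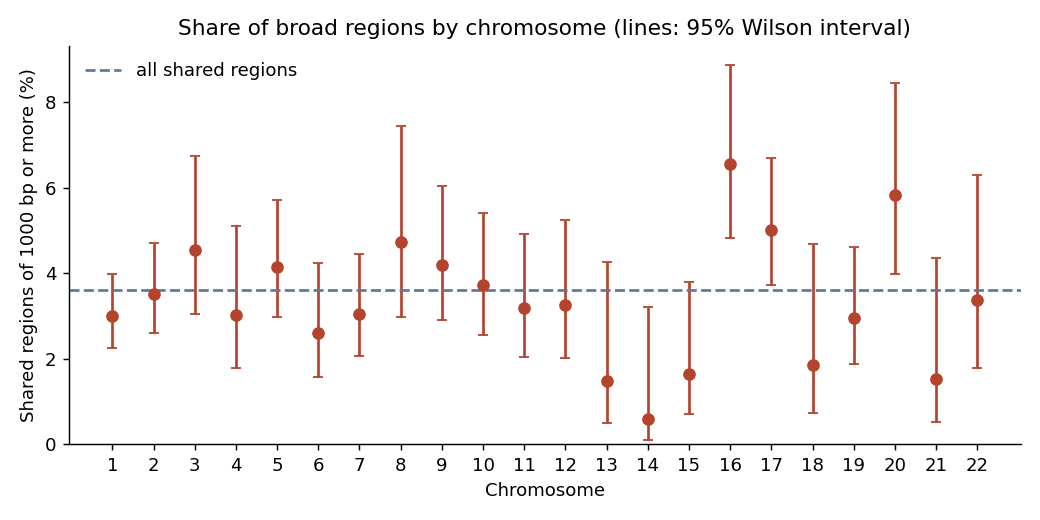
Percent of shared regions that were broad on each of chromosomes 1 to 22, with 95% Wilson intervals as lines and the 3.61% of all shared regions as a dashed line. Chromosome 14 is lowest at 0.581%, and chromosomes 16, 20 and 17 are highest at 6.56%, 5.83% and 5.01%, with intervals above the dashed line.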

How the data were processed

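ChIP-seq of DEK in 2 libraries of 786-O cells was analysed from the authors' deposited peak lists, 1 per library, so that peaks were called per library. Per the submitters' processing notes, the build was hg38, and MACS2 2.2.7.1, Bowtie2 2.2.5 and cutadapt 1.18 are listed without roles, beside deepTools 3.5.1, ChIPseeker 1.32.1 and DiffBind 3.6.5. The fold enrichment, a linear ratio at the summit, the −log10 p and −log10 q values and the score are the authors' deposited values. The score column was not used for any result. The sources used here do not state whether a control library entered the calling. Read totals are unknown from these files, and the summit pileup and background behind each value were solved from the deposited fold, taken as (pileup + 1) over (background + 1), and the Poisson p. A whole-number pileup met that p in 99.99% of peaks within a relative tolerance of 5e-05. With median pileups of 19 in both lists, a single fold carries a large counting error.

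Overlaps of 1 bp or more on chromosomes 1 to 22 joined peaks of both libraries into shared regions. In each library the strongest peak gave a region its fold, and the region's summit was the midpoint of these peaks' summits. Summits were placed in the first class that applied: within 1 kb of either end of a protein-coding gene, inside one, lncRNA gene, pseudogene, gene-free stretch of at least 1 Mb, other. Genes came from a RefSeq table of GRCh38.p14 without strand, and starts, strands and promoter sequences from a second RefSeq table. Python 3.11.15 with numpy 2.4.6, pandas 2.3.3 and scipy 1.17.1 was used, and the joining and solving steps were tested on simulated peaks. The simulation held at most 1 peak per library at each place and no high background. Joining of several peaks of a library, and solving at high background, were thus not tested by it. No group differs from another by treatment, so no test was run, and shares have 95% Wilson intervals.

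The broad regions, gene lists and comparisons were chosen with earlier results of these data known. Named were the 15 widest regions, the 10 genes with several broad regions and the greatest total width, the 10 gene-end regions of highest mean fold, up to 3 of the widest members per list, the 3 regions on each side of the threshold and 6 promoters. EGFR, TIMP2, NEDD9, the regions of highest fold outside gene ends and the lncRNA genes fall outside this rule and were chosen after their values were seen. Genes with near-identical copies, such as RNU1 and ribosomal RNA genes, are uncertain because reads could be split between copies. The gene position of 1 broad region on chromosome X is not reported here.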

Additional observations from a re-analysis of the deposited data

Results flagged for a closer look

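Chromosome X was outside the chromosomes analysed above and held 5 broad regions of 134 shared regions (3.73%). DHRSX had the highest folds among them, 7.80 in replicate 1 and 7.03 in replicate 2. Others lay in TXLNG (4.29 and 4.34), IQSEC2 (6.01 and 4.90) and TMEM164 (4.50 and 4.75). Peaks of 1000 bp or more that had no overlapping peak in the other library numbered 3 in replicate 2. They lay in BEST1 (1034 bp, fold 2.96), in HNRNPAB (1091 bp, 3.91) and outside genes on chromosome 9 (1070 bp, 3.36).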

How the results depend on the processing

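The number of broad regions followed the definition of width. It was 450 as reported, 1046 from 800 bp, 44 from 1500 bp, 235 with 50% reciprocal overlap, 93 with 1000 bp covered in both replicates and 73 with a single such peak in each, and 135 to 277 when either replicate was left out. Genes holding one numbered 303, and 658, 30, 164, 59, 44 and 87 to 184 under these settings. The share at gene ends, 5.56%, was 2.27% from 1500 bp, 2.15% with the width covered in both replicates, 0 of 73 (which allows 4.11%) with a single peak in each, and 3.61 to 5.19% without a replicate. It was 21.1% with a 3 kb window and 11.6% for any overlap. The share inside genes, 63.3%, was 53.3% with the 3 kb window. Broad minus narrower at gene ends was -3.25 percentage points, but 2.72 with the 3 kb window and 1.30 for any overlap, and -5.54 to -4.16 without a replicate. Inside genes the difference of 11.6 points was 5.75 against regions of 500 bp to under 1000 bp, 23.1 against those under 300 bp, 5.23 at a background of 5 to 8, and 7.96 to 13.2 without a replicate. Leaving out gene-free and high-background regions, an alternative chosen after seeing the data, gave 430 regions, 66.3% inside genes and 303 genes. Of 209 list counts under alternatives, 123 stayed near the reported count, 70 were lower and 16 higher. No paired analysis was possible because the study has 1 group. Low pileups limit single folds, and no input library was analysed here.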

Other observations

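GTPase-activating proteins of Arf, which regulate membrane traffic and the actin cytoskeleton, were looked at after ASAP1, ASAP2 and AGAP1 had been seen among the 15 genes with 2 broad regions, so the count supports nothing by itself. Of 12 genes of the ASAP, AGAP, ACAP and ARAP families, 3 held a broad region and 9 a narrower one. ASAP1 is 392 kb long, ASAP2 199 kb and AGAP1 638 kb. FLCN, the tumour suppressor gene of hereditary renal tumours, held a broad region of 1556 bp on chromosome 17 with folds of 5.49 in replicate 1 and 5.60 in replicate 2, its summit 1.34 kb from the nearest known start, and was chosen after its values were seen.

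Some broad regions that lay over genes of structural RNAs are named here as examples. The share of broad regions over such genes is not given, nor is that of narrower regions. The examples therefore do not show a trait of broad regions. Those over copies of the U1 RNA gene and over ribosomal RNA genes are also uncertain, because reads could be split between near-identical copies. Regions over RNU1-3 (4.03 in replicate 1 and 4.26 in replicate 2) and RNU1-2 (5.41 and 5.62), copies of the U1 RNA gene, lay on chromosome 1. A region over RNA45SN1 and RNA18SN1, genes of ribosomal RNA, lay on chromosome 21 (5.61 and 5.11). A region in SNHG17 covered the small nucleolar RNA gene SNORA71A (4.96 and 4.64).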
